A study of Gallus gallus with 9 samples.

Results

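The ZT12-ZT0 group compared granulosa cells of the hen F1 follicle at 2 stages of the ovulatory cycle that precede the surge of luteinizing hormone (LH). It comprised 6 of the 9 libraries of the series, the 3 of ZT12 and the 3 of ZT0, in both the mRNA table and the long noncoding RNA (lncRNA) table. Each library came from 1 hen. The hens were Rohman layers of 210 days of age chosen for laying at a steady time of the morning, with no treatment or genetic change named. They were killed at 9 p.m. for ZT12 and at 9 a.m. for ZT0, 12 h apart, so the stage of the follicle and the hour of the day cannot be told apart. The remaining 3 libraries, from the LH surge stage ZT20, served to estimate the spread between hens and to show where a level stood later. They also entered the choice of transcripts to compare and the scaling of libraries described below. Of 12479 listed mRNAs, 12472 exceeded 0.1 TPM (a length-corrected share of the transcripts of a library) in at least 1 library and were compared, as were 7414 of 7528 lncRNAs.

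The F1 follicle is the largest of the yolk-filled follicles of the hen ovary and the next one to ovulate. Its granulosa layer encloses the oocyte, produces progesterone and contributes ZP3 to the egg coat. The LH surge later drives these cells to raise progesterone output sharply and the follicle wall to rupture.

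A log2 fold change is the difference of the stage means of log2(TPM + 1), ZT12 minus ZT0, which compresses the change of transcripts near 0 TPM. An mRNA was called a differentially expressed gene (DEG), and an lncRNA a DEL, where this difference exceeded 1 in size and the limma test adjusted by Benjamini-Hochberg over all tested transcripts of its kind gave a p under 0.05. TPM values hold no read counts, so the depth behind a value is unknown. With 3 hens per stage, the p-values set the difference of the stage means against the spread between hens, estimated over all 9 libraries. In the limma fit, the spread of each transcript was drawn towards that of transcripts of similar level. The SE and p of a transcript therefore do not rest on its own spread alone.

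Against the ZT0 libraries, the ZT12 libraries were shifted downwards as a whole. Of the 12472 mRNAs, 9987 (80.1%) had a lower mean at ZT12 than at ZT0, and the median log2 fold change was -0.28. Each library was therefore also divided by a factor, the median ratio of its mRNAs to their geometric mean over all libraries. These factors were 0.961, 0.940 and 0.835 for the ZT12 libraries, against 1.12, 1.14 and 1.21 for the ZT0 libraries, and ZT12 and ZT0 did not overlap. The ZT20 libraries had 0.966, 1.01 and 0.944, nearer to ZT12 than to ZT0, so a factor below those of ZT0 was not particular to ZT12. With this scaling, the median of the mRNAs was -0.016 and 52.2% were lower at ZT12. The same factors left the lncRNAs with a median of -0.12, against -0.25 as deposited. The most abundant mRNAs stood the other way. The 10 highest mRNAs held 25.7, 25.5 and 32.2% of all TPM at ZT12, against 20.4, 21.02 and 20.01% at ZT0. One of them, the mRNA ENSGALG00000012263, held 5.18, 6.28 and 12.7% at ZT12, against 3.73, 3.11 and 2.498% at ZT0. Replicate 3 of ZT12 stood apart: it had the largest share for this mRNA, the smallest factor, and 5299 lncRNAs above 0.1 TPM, against 5908 and 6025 in the other ZT12 libraries and 6037 to 6300 at ZT0. The GC content of the reads, as listed in the study's summary of sequencing, was higher in each ZT12 library than in each ZT0 library, so that it cannot be told apart from stage.

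**Figure D1:**
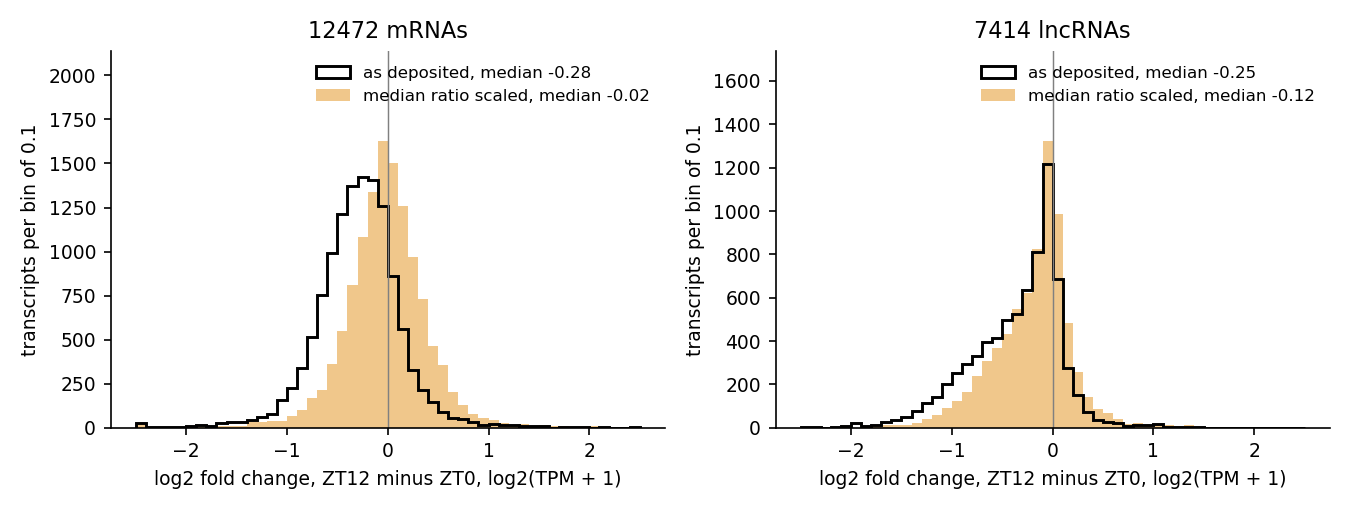
Distribution of the log2 fold change on log2(TPM + 1), ZT12 minus ZT0, for 12472 mRNAs (left) and 7414 lncRNAs (right). The vertical axis counts transcripts per bin of 0.1, values beyond 2.5 in size are in the end bins, the black outline is as deposited and the filled area is median ratio scaled. The mRNA median was -0.02 with scaling and -0.28 as deposited, and the lncRNA median was -0.12 and -0.25.

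The libraries carried the markers of granulosa cells. ZP3 was among the most abundant transcripts, with 114848, 109865 and 94922 TPM at ZT12, against 85076, 93193 and 91877 TPM at ZT0. STAR, the cholesterol carrier that starts steroid synthesis, and the nuclear receptors NR5A1 and NR5A2 were all above 100 TPM, whereas LHX9 did not exceed 1.34 TPM. Markers of other cells ranged from 0 to well above it in the 6 libraries. The leukocyte gene PTPRC reached 0.639 TPM, the fibroblast collagen COL6A3 reached 0.0309 TPM, the oocyte genes PIWIL1 and ZP2 reached 0.696 and 0.159 TPM, and RGS1 was listed at 0, while the endothelial CLDN5 and S1PR1 reached 74.5 and 20.4 TPM and the smooth muscle CSRP1 and SGCD reached 73.5 and 12.4 TPM. The summed level of 6 smooth muscle and fibroblast markers was 54.13 to 60.2 TPM at ZT12, against 73.0 to 84.3 TPM at ZT0 (56.3 to 65.2 and 65.4 to 69.8 with scaling). Most of it was CSRP1, with 44.99 ± 6.96 TPM at ZT12 and 68.2 ± 4.53 TPM at ZT0 (SD, n = 3 each). SGCD had 6.86 ± 4.85 TPM at ZT12 and 2.77 ± 2.21 TPM at ZT0, and MYOCD had 0.109 ± 0.079 TPM at ZT12 and 1.33 ± 1.44 TPM at ZT0. Of the 6 markers, 3 had a log2 fold change above 0, among them COL6A3 at 0.014 TPM in both stages. That of 3 endothelial markers was 28.7 to 36.6 TPM at ZT12, against 43.6 to 93.1 TPM at ZT0 as deposited, but overlapped with scaling (30.5 to 43.5 and 38.1 to 77.1), where none of the 3 markers had stages apart. The sums for 8 blood and immune markers overlapped as deposited, at 233 to 366 TPM at ZT12 and 258 to 294 TPM at ZT0, and did not with scaling (279.7 to 381 and 216 to 257). Most of that sum came from FYB and CD74, which reached 237 and 136 TPM. The 8 markers did not move together. With scaling, 3 had a log2 fold change above 0 and 4 below, and 2 had all ZT12 libraries above all ZT0 libraries and 3 below. Of all the markers in this paragraph and their lists, KCNMB1 was a DEG under both scalings and CLDN5 only as deposited.

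As deposited, 481 of the 12472 mRNAs (3.86%) were DEGs, of which 67 (0.537%) were higher at ZT12 and 414 (3.32%) lower. With scaling, 203 (1.63%) were DEGs, of which 101 (0.81%) were higher and 102 (0.818%) lower. The split between the directions thus depended on the scaling. Under both, 164 mRNAs were DEGs (1.31%), 62 higher (0.497%) and 102 lower (0.818%). Being called as deposited as well, where values were shifted downwards, asked a larger scaled change of higher mRNAs than of lower ones. The smallest scaled log2 fold change was 1.26 among the 62 and 1.01 in size among the 102. All 102 lower DEGs with scaling stayed under both, against 62 of the 101 higher ones. The uneven split of the 164 therefore came with this rule. For all 164, the 3 ZT12 libraries lay on one side of the 3 ZT0 libraries under either scaling. Over all tested mRNAs, 3.6% lay wholly above and 41.6% wholly below as deposited, and 15.9% and 16.0% with scaling. Another 317 were DEGs only as deposited and 39 only with scaling. Counts as deposited were 222 without ZT12 replicate 2, 282 without ZT12 replicate 3 and 196 without ZT0 replicate 3. Scaled counts were 132 without ZT12 replicate 1, 82 without ZT12 replicate 2, 96 without ZT0 replicate 3 and 155 without ZT12 replicate 3. When library GC content entered the fit as a covariate, 4 DEGs were called as deposited and 7 with scaling. Since GC content overlaps with stage, these counts cannot separate the 2.

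The part of the study's transcript table used here gave a symbol to 24 of the 164, 6 higher and 18 lower. The 6 higher and the 12 lower with the largest scaled change are described in full, ordered by what their products do. Of these 18, 12 were called in each of 6 fits that left out 1 library as deposited, and 6 in each of the scaled fits: SERPINF1, SHMT1, DPEP2, FN1, MAP2K6 and DGKQ. With only the 6 libraries of both stages in the fit, 15 of the 18 were called as deposited and 6 with scaling, and FN1 was not among those 6 (adjusted p 0.053). With the GC covariate 1 of the 18, SHMT1, was called under either scaling, and the scaled adjusted p of the other 17 was 0.098 to 0.39. All 18 kept the sign of their change in this fit. GC was higher in each ZT12 library than in each ZT0 library, so the covariate overlaps with stage. Calls lost or kept in this fit therefore cannot separate GC from stage. Of single libraries left out, ZT12 replicate 2 cost the most scaled calls, 10 of 18. Over the 6 scaled fits that left out 1 library, the smallest log2 fold change of the 18 in size was 1.05, for ADA. The largest adjusted p was 0.13, for HPD.

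**Figure D2:**
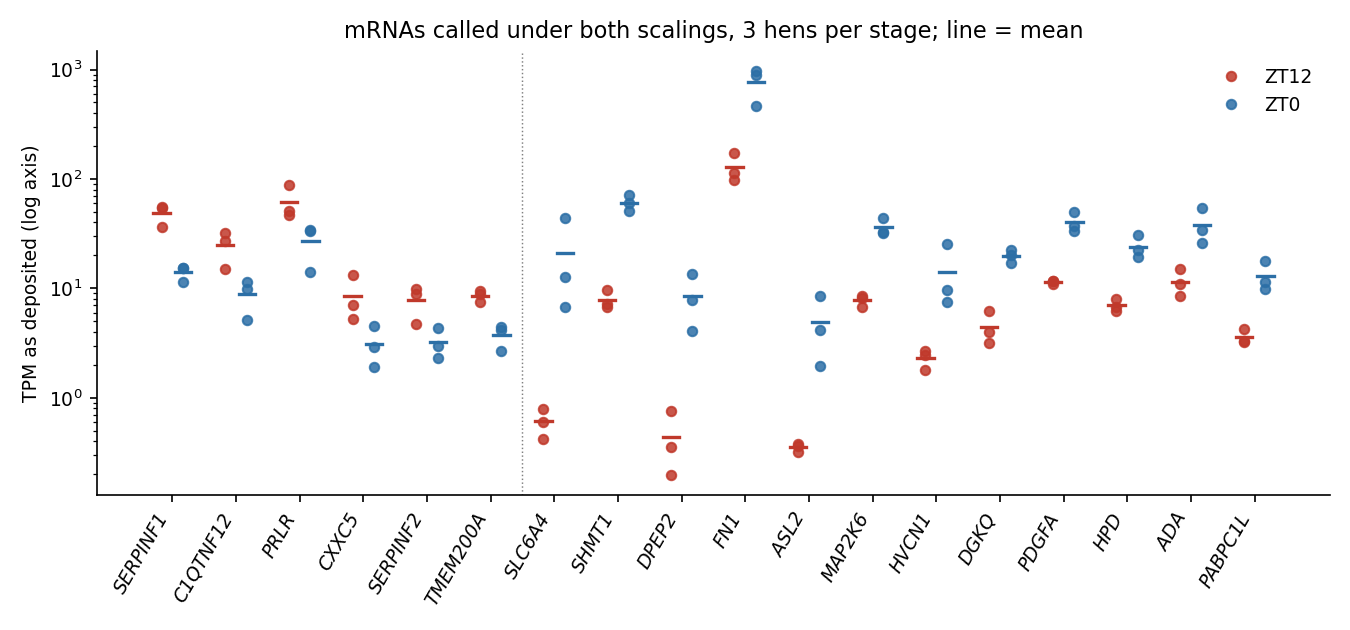
TPM as deposited (log axis) of the 18 named mRNAs in each hen at ZT12 (red, left of each pair) and ZT0 (blue, right); each point is 1 library and each line the mean of 3 hens. The 6 mRNAs left of the dotted line were higher at ZT12 and the 12 right of it lower. Stages that did not overlap were part of the rule that chose them.

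Among genes of the extracellular matrix and its proteases, SERPINF1 and SERPINF2 rose and FN1 fell. SERPINF1, which encodes the secreted antiangiogenic serpin PEDF (chr19:5406929-5413789 in Gallus_gallus v6.0 of Ensembl), had 55.7, 54.7 and 36.5 TPM at ZT12, against 15.3, 15.3 and 11.5 TPM at ZT0. Every ZT12 library was well above every ZT0 library. Its scaled log2 fold change was 2.04 ± 0.19 (SE), with an adjusted p of 0.0018 by limma, and 1.72 as deposited (adjusted p 0.0043). The neighbouring gene SERPINF2, for the plasmin inhibitor alpha-2-antiplasmin (chr19:5397323-5403025), lies on the same chromosome with 3903 bases between them. It had 9.97, 8.85 and 4.69 TPM at ZT12, against 4.39, 2.32 and 2.97 TPM at ZT0, a scaled log2 fold change of 1.31 ± 0.25 (SE) (adjusted p 0.026). The lowest ZT12 library of SERPINF2 lay just above the highest ZT0 library.

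FN1 encodes fibronectin, an adhesive glycoprotein of the matrix (chr7:4391168-4439659). It had 97.1, 113 and 172 TPM at ZT12, against 460.3, 970.3 and 896 TPM at ZT0. The mean at ZT12 was 6.09 times lower, and the scaled log2 fold change was -2.22 ± 0.32 (SE) (adjusted p 0.0099; 0.0044 as deposited). Of the 18, it had the highest level at ZT0. LAMB3, a laminin chain, and ADAMTSL2, a microfibril-binding protein, were DEGs as deposited only. LAMB3 had 0.617, 0.441 and 0.522 TPM at ZT12, against 2.67, 1.36 and 2.96 TPM at ZT0, and its scaled value was -0.90 (adjusted p 0.03). ADAMTSL2 had 2.29, 2.15 and 2.44 TPM at ZT12, against 4.55, 8.71 and 20.9 TPM at ZT0, with a scaled value of -1.40 (adjusted p 0.08), and its ZT0 hens differed widely. The gene lists, here and below, were chosen with earlier results of these data known. Their counts of calls cannot therefore be read as an excess over all mRNAs. Over the 28 tested genes of this list, 2 were called higher and 1 lower with scaling, against 0.81% and 0.818% of all mRNAs, 25 were not called, and the median scaled log2 fold change was -0.0085, against -0.016 for all mRNAs. Among those not called, SPARC had 1996 ± 287 TPM at ZT12 and 3365 ± 512 TPM at ZT0 (scaled log2 fold change -0.41) and the protease PLAU had 6.75 ± 1.897 TPM at ZT12 and 18.1 ± 13.7 TPM at ZT0 (SD, n = 3 each; -0.61).

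In peptide hormone and cAMP signalling, PRLR and C1QTNF12 rose. PRLR, the prolactin receptor (chrZ:10611245-10642043), had 87.8, 46.4 and 50.7 TPM at ZT12, against 33.3, 33.9 and 14.1 TPM at ZT0. The stages did not overlap, although the nearest hens of both were at 46.4 TPM (ZT12) and 33.9 TPM (ZT0). The scaled log2 fold change was 1.53 ± 0.35 (SE), with an adjusted p of 0.046 that spanned 0.041 to 0.12 when single libraries were left out. C1QTNF12 encodes a secreted C1q/TNF-related protein, known in mammals as the adipokine adipolin (chr21:2472220-2486139). It had 27.02, 15.2 and 32.3 TPM at ZT12, against 11.4, 9.89 and 5.15 TPM at ZT0, a scaled log2 fold change of 1.71 ± 0.34 (SE) (adjusted p 0.027, 0.028 to 0.082 with single libraries left out). Of the 22 tested genes, these were the 2 called with either scaling, both higher, against 0.537% of all mRNAs as deposited and 0.81% with scaling, and the list's scaled median was -0.047. This list too was chosen with earlier results known, so the count shows no excess of calls. RAMP1, which pairs with calcitonin-family receptors, had 17.8, 15.1 and 13.2 TPM at ZT12, against 9.35, 10.4 and 3.33 TPM at ZT0, with a scaled value of 1.33 that missed the threshold (adjusted p 0.056). The receptor partner CALCRL had 1.504 ± 0.646 TPM at ZT12 and 0.688 ± 0.245 TPM at ZT0 (SD, n = 3 each; 0.70, adjusted p 0.13). ADCYAP1R1, the receptor for the cAMP-raising peptide PACAP, had 22.9, 21.02 and 15.3 TPM at ZT12, against 35.01, 35.2 and 49.4 TPM at ZT0, with a value of -0.98 as deposited and -0.65 with scaling (adjusted p 0.032 and 0.15), short of the fold threshold.

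Among TGF-beta family and growth factor genes, PDGFA fell. It encodes the A chain of platelet-derived growth factor (chr14:1992390-2013345) and had 11.6, 11.8 and 10.96 TPM at ZT12, against 37.4, 33.6 and 50.2 TPM at ZT0. The 3 ZT12 hens were nearly equal, and each ZT0 hen was far above them. The scaled log2 fold change was -1.39 ± 0.22 (SE) (adjusted p 0.015, and 0.056 without ZT12 replicate 2). FRZB, a secreted antagonist of Wnt, was a DEG as deposited (-1.46 ± 0.35 (SE), adjusted p 0.026) and not with scaling (-1.12, adjusted p 0.11). It had 179, 59.6 and 141 TPM at ZT12, against 377, 240.1 and 355 TPM at ZT0. Of the 21 tested genes in this list, 1 was called lower with scaling and 3 as deposited, against 0.818% and 3.32% of all mRNAs. None was called higher, and the median was -0.18 with scaling and -0.45 as deposited. NOG, the BMP antagonist noggin, had 17.1 ± 2.33 TPM at ZT12 and 31.9 ± 8.35 TPM at ZT0 (scaled -0.51), and the repressor SKI had 24.6 ± 2.29 TPM at ZT12 and 44.3 ± 7.42 TPM at ZT0 (SD, n = 3 each; -0.48, adjusted p 0.075).

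Among channels and transporters, SLC6A4 and HVCN1 fell. SLC6A4 encodes the serotonin transporter (chr19:6202079-6214207) and had 0.796, 0.424 and 0.602 TPM at ZT12, against 6.75, 12.7 and 44.2 TPM at ZT0. All ZT12 hens were below 1 TPM, while the ZT0 hens differed widely among themselves. Its mean was 34.9 times lower at ZT12, and the scaled log2 fold change was -3.15 ± 0.49 (SE) (adjusted p 0.014, and 0.054 without ZT12 replicate 2). HVCN1, the voltage-gated proton channel (chr15:6026586-6036124), had 1.805, 2.699 and 2.49 TPM at ZT12, against 9.702, 7.53 and 25.3 TPM at ZT0, with a scaled log2 fold change of -1.73 ± 0.33 (SE) (adjusted p 0.026, 0.023 to 0.078 with single libraries left out). KCNJ5, a potassium channel gated by G proteins (chr24:1094566-1112534), had 0.5496, 27.9 and 0.405 TPM at ZT12, against 48.6, 41.2 and 57.8 TPM at ZT0. Replicate 2 of ZT12 was close to the ZT0 hens, and the other ZT12 hens were below 1 TPM. KCNJ5 was a DEG as deposited (-3.64 ± 0.93 (SE), adjusted p 0.031) but not with scaling (-3.38, adjusted p 0.077). With single libraries left out, its scaled limma adjusted p was 0.00014 to 0.21. It was called in 1 of these 6 scaled fits, the one without that hen. In the list of 29 channels and transmitter transporters, 2 were called lower with scaling and 3 as deposited, against 0.818% and 3.32% of all mRNAs. None was called higher, against 0.81% and 0.537%, although 7 of 29 had a scaled value above 0, and the scaled median was -0.25. TRPM1 and GABRP were lower in mean at ZT12, but were not called (scaled adjusted p 0.23 and 0.26). TRPM1 had 0.213, 0.1603 and 0.0971 TPM at ZT12, against 0.519, 0.958 and 16.99 TPM at ZT0. In both, 1 ZT0 hen lay far above the others, at 16.99 and 8.28 TPM. Outside the list, TMEM200A, a membrane protein of unknown role, rose, with 7.44, 9.45 and 8.92 TPM at ZT12, against 4.47, 4.16 and 2.6997 TPM at ZT0 and a scaled log2 fold change of 1.30 ± 0.20 (SE) (adjusted p 0.014, and 0.055 without ZT12 replicate 2).

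Further mRNAs that fell encode enzymes. SHMT1, which transfers the carbon of serine to folate in the cytosol (chr14:5132126-5135948), had 9.69, 7.25 and 6.71 TPM at ZT12, against 50.5, 59.8 and 71.8 TPM at ZT0. It had the smallest scaled adjusted p of the 18, with a scaled log2 fold change of -2.47 ± 0.18 (SE) and an adjusted p of 0.00042 (0.0016 to 0.0034 with single libraries left out). With the GC covariate, which overlaps with stage, it was the only one of the 18 called (scaled adjusted p 0.019). DPEP2, a membrane dipeptidase (chr11:3565749-3573871), had 0.352, 0.763 and 0.197 TPM at ZT12, against 4.104, 7.89 and 13.6 TPM at ZT0. Each ZT12 hen was below 1 TPM and each ZT0 hen above 4 TPM, and the scaled log2 fold change was -2.40 ± 0.32 (SE) (adjusted p 0.0077). ASL2, a chicken gene of the argininosuccinate lyase and delta-crystallin family (chr19:4919234-4928185), had 0.366, 0.379 and 0.321 TPM at ZT12, against 4.205, 8.504 and 1.97 TPM at ZT0, a scaled value of -1.77 ± 0.34 (SE) (adjusted p 0.024, 0.0068 to 0.08 with single libraries left out). HPD, which degrades the tyrosine product 4-hydroxyphenylpyruvate (chr15:5728349-5731163), had 6.22, 6.71 and 8.04 TPM at ZT12, against 30.9, 19.1 and 22.3 TPM at ZT0. Its stages were well apart, yet its scaled call (-1.31, adjusted p 0.045) was lost in each of the 6 fits that left out 1 library. ADA, which deaminates adenosine (chr20:5505993-5512210), had 10.8, 14.97 and 8.55 TPM at ZT12, against 25.9, 34.3 and 54.2 TPM at ZT0, with a scaled log2 fold change of -1.29 ± 0.24 (SE) (adjusted p 0.021).

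Among regulators of signalling and RNA, MAP2K6, DGKQ and PABPC1L fell and CXXC5 rose. MAP2K6, a kinase that activates p38 (chr18:8052645-8087995), had 6.799, 8.11 and 8.5997 TPM at ZT12, against 33.1, 32.4 and 44.2 TPM at ZT0. The hens of a stage were close and the stages far apart, with a scaled log2 fold change of -1.75 ± 0.19 (SE) (adjusted p 0.0033). DGKQ, which phosphorylates the messenger diacylglycerol (chrZ:70866492-70947773), had 6.18, 3.98 and 3.19 TPM at ZT12, against 17.1, 20.03 and 22.4 TPM at ZT0, with -1.66 ± 0.17 (SE) (adjusted p 0.0027). PABPC1L, a poly(A)-binding protein known from mouse oocytes (chr20:5378064-5387076), had 3.34, 3.24 and 4.25 TPM at ZT12, against 11.3, 9.89 and 17.9 TPM at ZT0, with -1.27 ± 0.27 (SE) (adjusted p 0.038), and its scaled call was lost in each of the 6 fits that left out 1 library. CXXC5, a zinc finger protein that restrains Wnt signalling (chr13:1027565-1056195), had 7.103, 13.3 and 5.204 TPM at ZT12, against 4.54, 2.91 and 1.93 TPM at ZT0, with 1.43 ± 0.31 (SE) (adjusted p 0.038). The lowest ZT12 hen and the highest ZT0 hen of CXXC5 were close. The other 6 mRNAs with a symbol that were called under both scalings were all lower: PLS1, DYRK3, ATCAY, KCNMB1, LVRN and JMJD1C, with scaled log2 fold changes between -1.21 and -1.01. KCNMB1, a smooth muscle potassium channel subunit, had 0.3502, 0.386 and 0.0724 TPM at ZT12, against 2.23, 1.33 and 2.91 TPM at ZT0. KCNMB1 is itself among the 6 smooth muscle and fibroblast markers summed above, so it does not stand as a separate check on that sum. The markers were not uniform. With scaling, SGCD had a log2 fold change of 1.29, TWIST2 0.44 and COL6A3, near 0 TPM, 0.0043. KCNMB1 had -1.13, MYOCD -0.79 and CSRP1 -0.26. Of the 6, 3 had all scaled ZT12 libraries below all ZT0 libraries and 1 had them above. The part of such cells in these differences was not tested, and fewer cells of a type cannot be told apart from less RNA per cell.

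The ZT20 libraries put these mRNAs on different courses. The ZT20-ZT12 group uses the same ZT12 libraries, so its values are given only side by side. SERPINF1 was higher still at ZT20, with 113, 131 and 161 TPM (ZT20 minus ZT12 1.36 ± 0.19 (SE) on the scaled log2 scale, adjusted p 0.00019). C1QTNF12 and TMEM200A, by contrast, were highest at ZT12, with 3.03, 3.41 and 2.36 TPM and 0.353, 0.724 and 0.5897 TPM at ZT20 (-2.76 and -2.74). Among those that fell, FN1 reached 2444, 3609 and 2947 TPM at ZT20 and DPEP2 34.3, 49.99 and 37.3 TPM. Both were therefore lowest at ZT12, with ZT20 minus ZT12 values of 4.48 and 4.86. HVCN1 and ASL2 had the largest ZT20 minus ZT12 values of the 18, with 413, 543 and 404 TPM and 656, 890.1 and 673 TPM at ZT20 (7.03 and 9.08). SHMT1 was as low at ZT20, with 7.16, 7.53 and 10.3 TPM (ZT20 minus ZT12 -0.013, adjusted p 0.96), and MAP2K6 was lower again, with 0.884, 1.15 and 0.5596 TPM (-2.36).

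**Figure D3:**
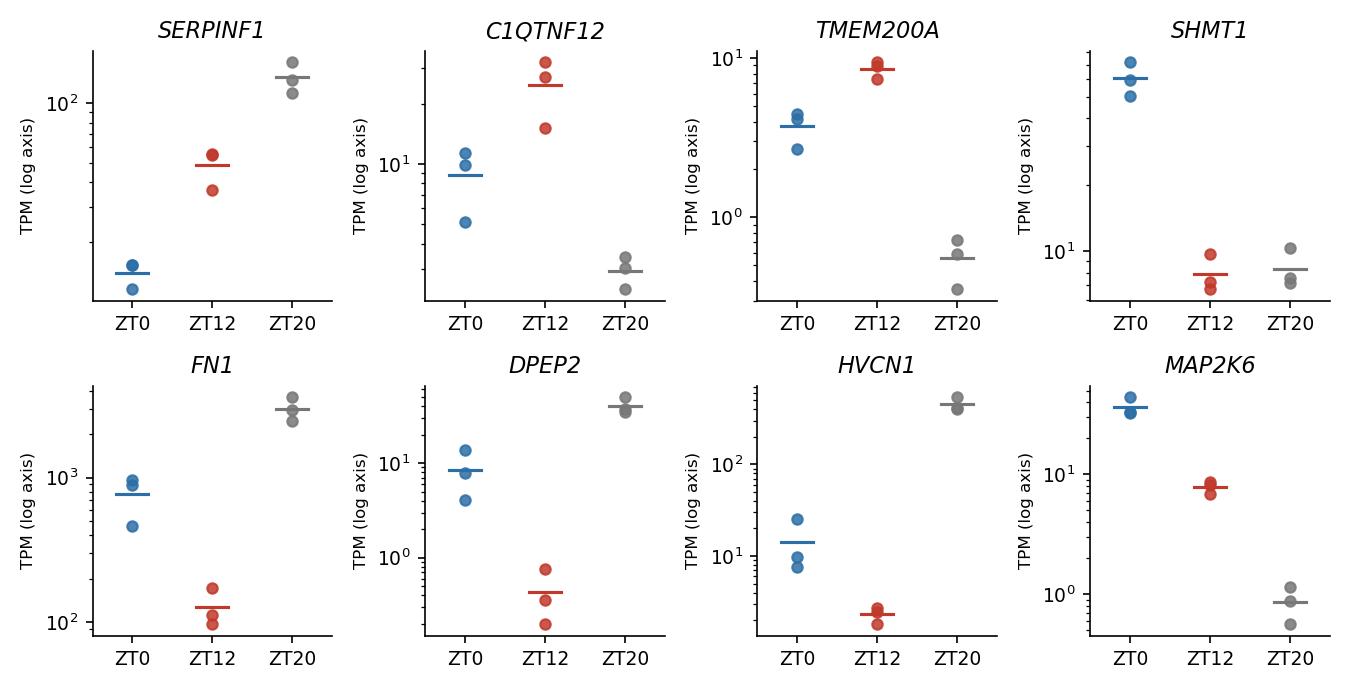
TPM as deposited (log axis, own range per panel) of 8 mRNAs in each hen at ZT0, ZT12 and ZT20; points are libraries and lines the mean of 3 hens. FN1, DPEP2 and HVCN1 had their lowest level at ZT12, C1QTNF12 and TMEM200A their highest, SHMT1 was low at ZT12 and ZT20, and SERPINF1 and MAP2K6 moved one way through all 3 stages.

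Of the 164 DEGs under both scalings, 140 had no symbol in the table used here. ENSGALG00000053680 had 254, 274 and 394 TPM at ZT12, against 0, 0.8501 and 0 TPM at ZT0. It was abundant at ZT12 and at or near 0 at ZT0, with a scaled log2 fold change of 8.11 ± 1.26 (SE) (adjusted p 0.014, and 0.052 without ZT12 replicate 2), but the ZT20 hens had 0.8998, 171 and 50.4 TPM and differed widely from each other. ENSGALG00000042664 had 18.6, 43.7 and 7.78 TPM at ZT12, against 1.28, 2.96 and 2.17 TPM at ZT0 (2.95 ± 0.46 (SE), adjusted p 0.014). In the other direction, ENSGALG00000019063 had 0.991, 2.19 and 1.32 TPM at ZT12, against 24.3, 27.4 and 42.7 TPM at ZT0, with a scaled log2 fold change of -3.40 ± 0.23 (SE) (adjusted p 0.00042). ENSGALG00000009687 had 1.82, 3.01 and 1.098 TPM at ZT12, against 43.97, 15.1 and 54.8 TPM at ZT0 (-3.30 ± 0.40 (SE), adjusted p 0.0055). Stages that did not overlap were part of the rule that chose these 4. Over all 62 higher DEGs the median scaled log2 fold change was 1.63, and over all 102 lower DEGs it was -1.45. The rule of both scalings asked more of the higher ones, with smallest sizes of 1.26 and 1.01, so these medians are not comparable.

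None of 18 genes of steroidogenesis and sterol handling was called, against 3.86% of all mRNAs as deposited and 1.63% with scaling, and a count of 0 in a list of this size is near that background. STAR had 1453, 1736 and 1403 TPM at ZT12, against 2133, 2071 and 1011 TPM at ZT0, and its ZT12 range lay within that of ZT0. Its log2 fold change was -0.11 ± 0.30 (SE) as deposited and 0.23 ± 0.32 (SE) with scaling (adjusted p 0.82 and 0.72). NR5A1, a nuclear receptor that activates steroidogenic genes, had 158, 161 and 216 TPM at ZT12, against 261, 316 and 350.3 TPM at ZT0. Its stages were apart as deposited and overlapped with scaling. Its log2 fold change was -0.80 as deposited, short of the fold threshold, and -0.45 scaled (limma adjusted p 0.031 and 0.27). The 18 genes of the list had a median of 0.067 with scaling and -0.24 as deposited. Only the 1823 of 12479 mRNAs with a symbol could enter a list, so these 18 are not a full survey of steroidogenesis. The largest scaled value above 0 was that of DHCR7, the last step to cholesterol, with 678, 609 and 531 TPM at ZT12, against 564, 527 and 551 TPM at ZT0 (0.48 ± 0.13 (SE), adjusted p 0.066).

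Of 4 tested circadian clock genes, 1 was called lower as deposited and none with scaling, against 3.32% and 0.818% of all mRNAs. All 4 had a lower mean at ZT12, as had 80.1% of all mRNAs as deposited. HLF, a clock output transcription factor, had 7.53, 6.25 and 6.14 TPM at ZT12, against 11.4, 17.1 and 30.96 TPM at ZT0. The stages did not overlap, and the log2 fold change was -1.34 ± 0.29 (SE) as deposited (adjusted p 0.021) and -1.02 ± 0.26 (SE) with scaling (adjusted p 0.062). CSNK1D, a kinase that acts on PER proteins, had 40.96, 37.8 and 33.9 TPM at ZT12, against 66.3, 64.5 and 62.98 TPM at ZT0. Its stages were apart with little spread, yet its change stayed under the fold threshold, at -0.43 scaled (adjusted p 0.056). PER3 had 2.09, 1.21 and 1.11 TPM at ZT12, against 1.83, 2.79 and 3.49 TPM at ZT0, and RORA had 16.05, 18.6 and 11.3 TPM at ZT12, against 16.1, 17.8 and 29.4 TPM at ZT0, both with overlapping stages. The median of the 4 was -0.39 scaled and -0.68 as deposited. These 4 are likewise limited to mRNAs with a symbol and are not a full set of clock genes.

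Of 119 genes in 6 lists of basic cell functions, 3 (2.52%) were called as deposited, against 3.86% of all mRNAs, and none with scaling, against 1.63%. The sign of the list medians depended on the scaling except for the ribosomal protein and cell cycle genes and the genes for glucose use. All 18 tested ribosomal protein mRNAs had a scaled log2 fold change above 0, between 0.076 and 0.64 with a median of 0.49, while as deposited 15 of 18 were above 0 with a median of 0.15. None was called. With scaling 7 of 18 had all ZT12 libraries above all ZT0 libraries, against 15.9% of all mRNAs. These mRNAs are abundant, with means at ZT12 from 275 to 2164 TPM, and the scaled medians of abundant mRNAs of any kind were above 0. Single abundant mRNAs went either way. Between 100 and 1000 TPM, 10 were called higher and 11 lower with scaling, and above 1000 TPM 0 and 1. The scaled median was 0.17 for all mRNAs between 100 and 1000 TPM and 0.39 above 1000 TPM, classes that include the ribosomal protein mRNAs. The part of level in the ribosomal values was not tested. RPL38 had 1487 ± 247 TPM at ZT12 and 1208 ± 179 TPM at ZT0 and RPS24 had 1576 ± 128 TPM at ZT12 and 1426 ± 193 TPM at ZT0 (SD, n = 3 each). The 12 proteasome genes had medians of 0.18 scaled and -0.15 as deposited, and the 15 genes of mitochondrial respiration 0.25 and -0.092, with none called. The 33 cell cycle genes had medians of -0.063 and -0.29, with 1 called as deposited, RTKN2 (2.96, 1.68 and 1.92 TPM at ZT12, against 6.401, 4.05 and 6.08 TPM at ZT0; -1.03 as deposited, -0.77 scaled). Among 23 genes of folding and stress in the endoplasmic reticulum, the medians were 0.12 and -0.22. HERPUD1, which is induced by unfolded proteins and takes part in their degradation, had 90.6, 99.7 and 122 TPM at ZT12, against 243, 246 and 273 TPM at ZT0. It was called as deposited (-1.29 ± 0.14 (SE), adjusted p 0.0031) and missed the fold threshold with scaling (-0.95, adjusted p 0.019). The chaperone HSPA5 had 1092, 1112 and 1132 TPM at ZT12, against 1241, 1019 and 1011 TPM at ZT0, and MANF had 367, 462 and 265 TPM at ZT12, against 224, 277 and 256 TPM at ZT0 (scaled 0.38 and 0.84) with neither called. Of 18 genes for glucose use and hypoxia, with medians of -0.016 and -0.30, ANGPTL4 alone was called, as deposited, with 17.99, 11.8 and 5.39 TPM at ZT12, against 22.8, 37.1 and 30.5 TPM at ZT0 (scaled -1.08, adjusted p 0.094).

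**Figure D4:**
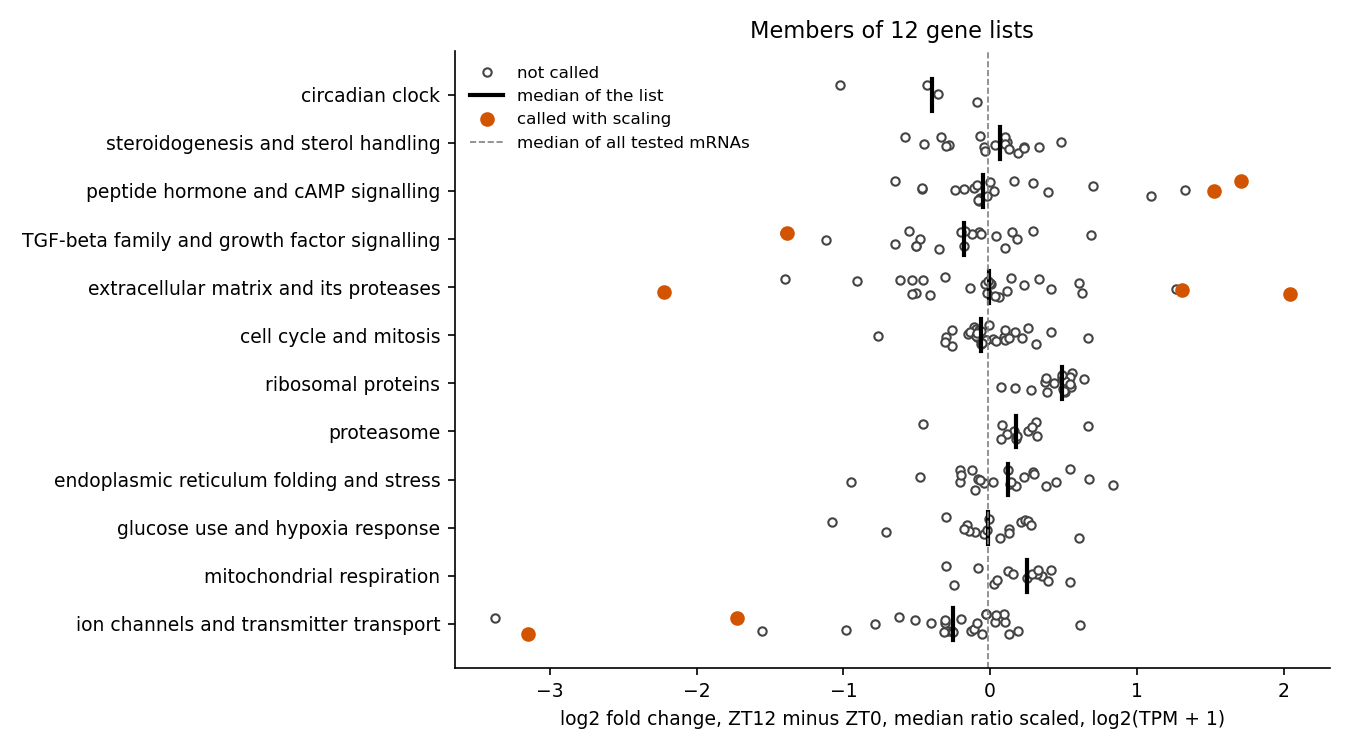
Scaled log2 fold change on log2(TPM + 1), ZT12 minus ZT0, of the members of 12 gene lists; each circle is 1 mRNA, filled where it was a DEG with scaling, and bars mark list medians. The ribosomal protein mRNAs all lie above 0 with a median of 0.49. The median was 0.17 for all mRNAs between 100 and 1000 TPM and 0.39 above 1000 TPM, classes that include them. The called members lie in the lists for peptide hormones, growth factors, matrix and channels. The lists were chosen with earlier results of these data known.

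The median fold change differed with the level of the mRNA. With scaling, the median was -0.04 for 1678 mRNAs with a mean of up to 1 TPM, -0.077 for 3740 between 1 and 10 TPM, 0.0038 for 5889 between 10 and 100 TPM, 0.17 for 1066 between 100 and 1000 TPM, and 0.39 for 99 above 1000 TPM. As deposited, the last class had a median of 0.045 and the class between 10 and 100 TPM -0.32. It also differed with the structure of the transcript, for which 1997 tested mRNAs had a position and were split into 4 classes of near equal size. The class with the fewest exons (median 4) had a scaled median of 0.015 and that with the most (median 20) -0.12. The class of the shortest transcripts (median 954 bases) had 0.014 and that of the longest (median 3925 bases) -0.11. Spearman's rho across these genes, which are not independent replicates, was -0.18 for exon number and -0.15 for transcript length. Levels, lengths and exon numbers are related to each other, and their separate parts were not tested.

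Of the transcripts for which the study lists qPCR primers, TTYH3, a chloride channel family member, had 10.7, 10.9 and 2.601 TPM at ZT12, against 19.5, 28.7 and 38.04 TPM at ZT0. It was a DEG as deposited (-1.85 ± 0.41 (SE), adjusted p 0.022) and not with scaling (-1.54, adjusted p 0.059). TRAF1, an adaptor of TNF receptors, had 1.41, 2.17 and 1.67 TPM at ZT12, against 1.71, 1.18 and 1.29 TPM at ZT0, with overlapping stages and a scaled value of 0.40 (adjusted p 0.19). The lncRNA G13560 had 57.1, 46.6 and 16.5 TPM at ZT12, against 96.8, 86.8 and 77.6 TPM at ZT0, and G4510 had 4.03, 5.97 and 0.736 TPM at ZT12, against 9.75, 12.3 and 17.5 TPM at ZT0. The ZT12 hens lay below the ZT0 hens for both, but neither was a DEL (scaled adjusted p 0.32 and 0.21). G5405, antisense to an intron (chr17:686656-740597), had 11.9, 11.9 and 4.14 TPM at ZT12, against 23.6, 20.3 and 28.5 TPM at ZT0 (adjusted p 0.28), and G17003 had 0.274, 0.754 and 0.0991 TPM at ZT12, against 0.657, 0.551 and 1.91 TPM at ZT0 with overlapping stages.

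The count of called lncRNAs depended on how they were fitted. As deposited, 6 of 7414 (0.0809%) were DELs, 1 higher (0.0135%) and 5 lower (0.0674%), and with scaling 3 (0.0405%), 1 higher (0.0135%) and 2 lower (0.027%). As deposited, 2 DELs were called without ZT12 replicate 1 or 2, and 3 without ZT12 replicate 3 or ZT0 replicate 1. With scaling, 2 were called without ZT12 replicate 1 or 2 or ZT0 replicate 3. In one fit with the mRNAs, 238 were called as deposited (3.21%) and 35 with scaling (0.472%). Among the 4327 lncRNAs at 1 TPM in 3 libraries, 23 (0.532%) were called as deposited and 7 (0.162%) with scaling. At an unadjusted p under 0.05, 1874 of the 7414 lncRNAs passed as deposited and 1053 with scaling. G113 was detected only at ZT12, with 8.19, 5.07 and 2.74 TPM, and was at 0 in the files for the ZT0 and ZT20 hens (limma adjusted p 0.00087 with scaling, 0.00044 to 0.028 with single libraries left out). G16863 had 0, 0 and 0.0845 TPM at ZT12, against 3.67, 3.17 and 4.24 TPM at ZT0, and the libraries of ZT20 had 0.149, 0 and 0 TPM (adjusted p 0.00025). G16861 had 0, 0.11998 and 0 TPM at ZT12, against 3.84, 1.58 and 4.78 TPM at ZT0 (adjusted p 0.018, 0.00039 to 0.12 with single libraries left out). Both were thus present at ZT0 and at or close to 0 at the other stages. The ZT20 libraries, at or close to 0 for these 3 lncRNAs, entered the estimate of their spread. With only the 6 libraries of both stages, the scaled limma adjusted p was 0.21 for G113, 0.10 for G16863 and 0.34 for G16861. The DELs as deposited only were G15322, ENSGALG00000047138 and G9165. G15322 had 1.002, 0.519 and 0.306 TPM at ZT12, against 6.23, 4.35 and 3.102 TPM at ZT0 (adjusted p 0.038 as deposited, 0.081 with scaling).

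The level of lncRNAs at ZT12 differed by position class. The part of the study's transcript table used here gave a position class to 1208 of the tested lncRNAs, so the class sizes are those of this part. The 497 lncRNAs that the study classed as intronic, a class separate from those antisense to an intron, had a median scaled log2 fold change of -0.51. The name of this class does not give the strand. Of these intronic lncRNAs, 448 (90.1%) were below 0, against 5112 (69.0%) of all 7414 tested lncRNAs. The share was 81.7% for those antisense to an intron and 58.7% for those antisense to an exon. The 109 lncRNAs antisense to an intron had -0.24, the 165 intergenic ones -0.13, and the 235 antisense to an exon -0.057, against -0.12 for all 7414. Within one range of level, a mean of 1 to 10 TPM, the intronic class had -0.49, the class antisense to an intron -0.35, the intergenic class -0.33 and the class antisense to an exon -0.086. For 168 intronic lncRNAs (33.8%) all scaled ZT12 libraries were below all ZT0 libraries, against 16.8% of all tested lncRNAs and 8.94% of those antisense to an exon. The scaled median TPM of the intronic class was 3.53, 3.00 and 1.41 in the ZT12 libraries, against 3.56, 3.78 and 5.12 in the ZT0 libraries. The stages did not overlap, but replicate 1 of ZT12 was almost equal to replicate 1 of ZT0, and replicate 3 of ZT12 was far below the rest. Without ZT12 replicate 3, the median log2 fold change of the class was -0.27, against -0.062 for all lncRNAs. With factors derived from the lncRNAs themselves, chosen after seeing the data, it was -0.18, against 0 for all lncRNAs. In the same order, without ZT12 replicate 3 and with factors from lncRNAs, the class antisense to an intron had -0.15 and -0.070, the intergenic class -0.025 and 0.048, and the class antisense to an exon -0.11 and 0.20. Reads from the introns of unspliced transcripts and from a separate intronic lncRNA cannot be told apart here.

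**Figure D5:**
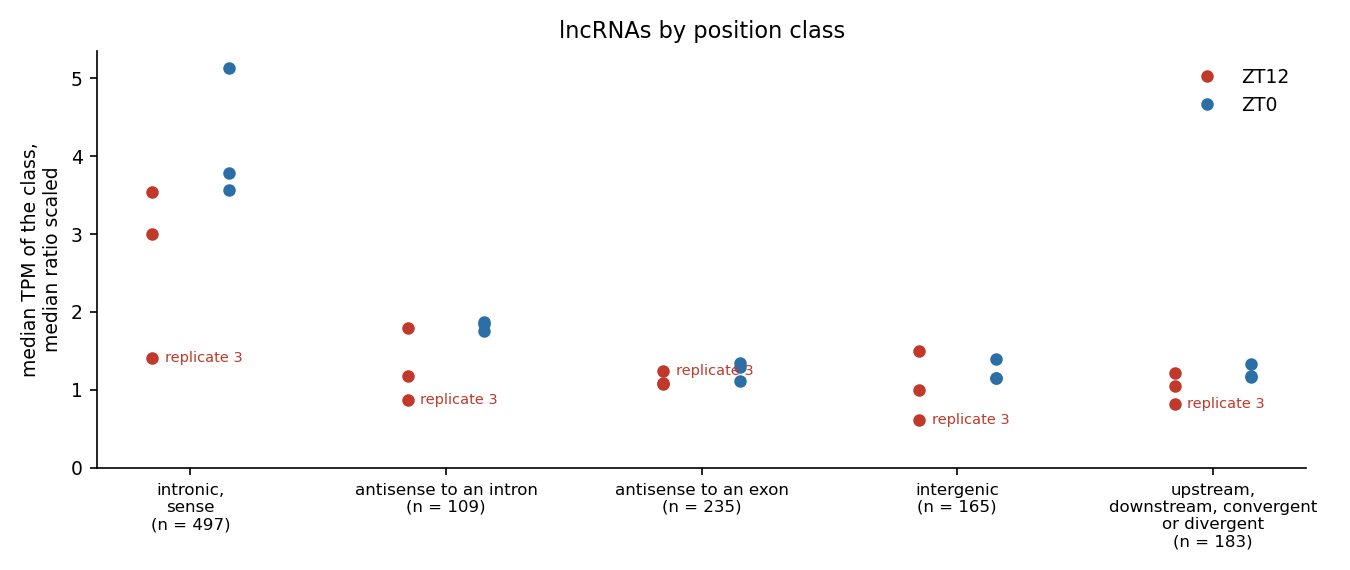
Median ratio scaled TPM, taken as the median over the lncRNAs of each position class, in each ZT12 library (red, left) and ZT0 library (blue, right). Intronic lncRNAs had 1.41 to 3.53 at ZT12 and 3.56 to 5.12 at ZT0, with replicate 3 of ZT12 lowest, while the class antisense to an exon overlapped. The class marked as sense is the study's intronic class, whose name does not give the strand.

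A cluster of 4 abundant lncRNAs lies on chromosome 1. G689 (chr1:48923918-48925661) lies within G688 (chr1:48910150-48936649), and G690 (chr1:48926924-49064412) and G691 (chr1:48929868-49009968) overlap G688 and each other, so they are not independent. G689, classed as intronic, had 1914, 1392 and 452 TPM at ZT12, against 2172, 2948 and 2528 TPM at ZT0. G690, classed as antisense to an intron, had 1359, 1006 and 377 TPM at ZT12, against 2114, 3059 and 2589.5 TPM at ZT0. As deposited, the ZT12 hens were below the ZT0 hens for all 4, and with scaling for all but G689. Among the ZT12 hens, replicate 3 was lowest in each. None was a DEL, with scaled log2 fold changes from -1.33 to -0.90 and adjusted p from 0.21 to 0.35. G690 had 185, 161 and 205 TPM at ZT20. G13445, the highest lncRNA of the table, had 61901, 71629 and 35728 TPM at ZT12, against 57552, 40901 and 43257 TPM at ZT0, with overlapping stages (0.56, adjusted p 0.3).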

How the data were processed

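Granulosa cells of 3 hens per stage were sequenced after depletion of ribosomal RNA. The authors mapped reads with STAR (2.6.0c), assembled lncRNAs with Cufflinks and TACO, quantified TPM with Kallisto and classed lncRNAs by position with FEELnc. They deposited log2 values: the mRNA table was read as log2(TPM + 1) and the lncRNA table, whose values start at 1, as log2(TPM + 2), since both tables then summed to 972378 to 983179 TPM per library, and to 906098 to 933018 if read with 1. Both were converted back to TPM. Whether the counting used strand is not given in the sources used here, so antisense and overlapping transcripts may share reads.

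limma 3.58.1 (R 4.3.3) with a mean-variance trend was fitted to log2(TPM + 1) of all 9 libraries with 3 stage means (6 residual degrees of freedom), for mRNAs and lncRNAs separately, after keeping transcripts above 0.1 TPM in at least 1 library. The authors used DESeq2, which needs counts that TPM do not give. Scaling factors were median ratios over 11747 mRNAs above 0 in every library, applied to both tables. The main fit to unscaled values was also run on simulated data with known changes, and the scaled and alternative fits were not. Summaries used Python with pandas 2.3.3 and matplotlib.

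Symbols (1823 mRNAs) and positions (1998 mRNAs, 1220 lncRNAs) came from the part of the study's transcript table used here, and the reference gene table paired 0 identifiers. The text names the DEGs under both scalings with a symbol and stages that do not overlap (12 largest scaled changes each way, of which 6 existed upwards), called members of 12 gene lists and 5 marker lists, 2 mRNAs without a symbol and up to 5 lncRNAs each way, and transcripts of the study's qPCR. G688 to G691, G13445, ENSGALG00000012263, the lncRNA classes and uncalled list members were picked with their values in view. The members and lists were chosen with earlier results of these data known. Alternatives were another pseudocount, filters, quantile normalization, no trend, the 6 libraries alone, no fold threshold, a replicate block, a GC covariate, one fit for both kinds, and each library left out.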

Additional observations from a re-analysis of the deposited data

How the results depend on the processing

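The mRNA counts moved most with the GC covariate, which overlaps with stage (4 as deposited and 7 with scaling). As deposited (481), they were 785 with a pseudocount of 0.1, 215 with quantile normalization (115 higher, 100 lower), 298 rescaled without the 10 highest transcripts, an alternative chosen after seeing the data (92 higher, 206 lower), 2089 with no fold threshold, and 196 to 699 with single libraries left out. With scaling (203), they were 70 with only the 6 libraries of both stages, 393 with no fold threshold and 82 to 282 with single libraries left out. The lncRNA counts as deposited (6) were 23 at 1 TPM in 3 libraries (of 4327 tested), 2 with the GC covariate, 2 with no filter, 14 without the trend, 238 in one fit with mRNAs, 3 rescaled without the 10 highest, and 2 to 6 with single libraries left out. With scaling (3) they were 7 at 1 TPM in 3 libraries (of 4327 tested), 5 without the trend, 35 in one fit with mRNAs, 7 with factors from lncRNAs, also chosen after seeing the data, and 2 to 3 with single libraries left out. With only the 6 libraries, limma gave 0 DELs under either scaling, with 1428 and 835 lncRNAs at an unadjusted p under 0.05.

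The median log2 fold change of all mRNAs (-0.28) was -0.016 with scaling, 0.0041 and so of the other sign with quantile normalization, -0.13 rescaled without the 10 highest, and -0.31 to -0.22 with single libraries left out. That of lncRNAs (-0.25) was -0.0018 with quantile normalization, -0.61 with a pseudocount of 0.1, -0.53 at 1 TPM in 3 libraries, 0 with factors from lncRNAs, and -0.32 to -0.17 with single libraries left out.

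Same-numbered hens of the 2 stages did not deviate together: as deposited, their correlations were 0.078, -0.0034 and -0.020 for mRNAs and -0.11, -0.043 and -0.18 for lncRNAs. With the replicate number as a block the counts were 388 and 170 DEGs and 4 and 3 DELs, as deposited and with scaling. Over the called genes and lncRNAs named, no alternative changed the sign of a fold change; 317 of 1290 single results lost the call and 14 gained it. The cause of these differences was not tested. TPM hold no depth, so counting error could not be separated from the spread between hens.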
